A study of Homo sapiens with 6 samples.

Results

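The regions described here are 1659 promoter R-loop peaks that were listed for HEK293T cells after exposure to N2-heptynyl-dG and had no counterpart on the same strand in untreated cells. They were chosen by the measured peak lists themselves. A peak of the treated list was kept if it shared no base pair with an untreated peak of its strand, and if its midpoint lay between 1000 bp upstream and 100 bp downstream of an annotated transcript start. They are 1659 of the 11085 treated peaks and 1659 of the 5756 treated peaks in promoters, that is 28.8% of the latter (95% Wilson interval 27.7% to 30%). Across the genome 3411 treated peaks, or 30.8%, were unmatched by the same criterion. In the other direction, 1103 of 5129 untreated promoter peaks, or 21.5%, were unmatched in the treated list. These shares are what the selection counts, and nothing is read from them here. Peaks are not replicates, so every interval given covers the counting error or the variation among peaks only. With 1 list per condition there is no spread between replicates, and no difference between groups of peaks was tested.

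HEK293T is a human embryonic kidney cell line, labelled as wild-type in all samples. Treated cells had 10 μM N2-heptynyl-dG in the medium for 3 h. This is a deoxyguanosine with an alkyne-bearing chain on its exocyclic nitrogen, which cells can build into DNA as a minor-groove lesion. Untreated cells went without it, and both were then labeled with 5 mM N3-kethoxal for 10 min. N3-kethoxal reacts with guanines that are not base-paired, so that the displaced strand of an R-loop can be captured with its orientation kept. The labels give 2 treated samples, 2 untreated samples and 2 inputs of untreated cells. Each condition has 1 list, attached to its first replicate, and carries no mark of the replicates behind it. The study's methods state that R-loops were identified from 2 replicates, without saying how these were combined. The lists hold no peak height, and neither the position nor the number of lesions was measured in them. From the lists alone, a peak and a lesion therefore cannot be set against each other. The study correlated its R-loop data with separate sequencing of the lesion, which was not used here.

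An R-loop consists of an RNA hybridized to its DNA template and of the other DNA strand, which is left unpaired. R-loops are frequent at the promoters of active genes, close behind the start where RNA polymerase II pauses, and are favored by CpG islands and by transcribed sequence whose non-template strand is rich in G. Many human promoters are also transcribed upstream in the opposite direction, so that an R-loop can arise on either strand around a start. In the following, sense denotes a peak listed on the strand of the gene at which it was placed, and antisense a peak on the other strand. The lists do not say which strand of the R-loop their strand column stands for, so orientation is given only as the listed strand against that of the gene.

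The sequences below show how differently composed the treated-only promoter peaks were. Each is a 150-base stretch of a peak from the GRCh37 genome, written 5′ to 3′ on the strand of the peak and outside every annotated exon, with runs of at least 3 G or at least 3 C in capitals. CHERP is a gene that the study singled out, and the BLM stretches come from peaks that abut on opposite strands. UBE3A had the peak farthest from any untreated peak. AGPAT3 and CACNG8 are among the 3 peaks of highest GC skew, and UCKL1 and FAH are among the 3 of lowest GC skew. GC skew is (G - C)/(G + C), counted on that strand.
CHERP, chr19:16653252-16653401, minus strand: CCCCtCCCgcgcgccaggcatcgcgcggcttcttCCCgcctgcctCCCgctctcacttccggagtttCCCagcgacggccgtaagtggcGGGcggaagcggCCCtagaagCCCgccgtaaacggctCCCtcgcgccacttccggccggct
BLM, chr15:91260383-91260532, plus strand: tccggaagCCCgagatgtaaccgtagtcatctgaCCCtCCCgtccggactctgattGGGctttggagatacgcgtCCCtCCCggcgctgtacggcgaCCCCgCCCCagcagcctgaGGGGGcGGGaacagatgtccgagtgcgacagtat
BLM, chr15:91260058-91260207, minus strand: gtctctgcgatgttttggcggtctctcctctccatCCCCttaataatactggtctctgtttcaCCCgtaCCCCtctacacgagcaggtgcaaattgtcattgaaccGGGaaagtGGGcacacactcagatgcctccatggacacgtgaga
UBE3A, chr15:25684209-25684358, minus strand: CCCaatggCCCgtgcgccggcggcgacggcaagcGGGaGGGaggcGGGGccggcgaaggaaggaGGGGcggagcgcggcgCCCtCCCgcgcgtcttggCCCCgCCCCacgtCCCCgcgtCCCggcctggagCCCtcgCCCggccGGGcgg
AGPAT3, chr21:45379336-45379485, plus strand: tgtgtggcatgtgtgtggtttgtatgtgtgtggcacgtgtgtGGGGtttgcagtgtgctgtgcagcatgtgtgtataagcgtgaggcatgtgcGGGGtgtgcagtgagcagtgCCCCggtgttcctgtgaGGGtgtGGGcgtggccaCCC
CACNG8, chr19:54465718-54465867, plus strand: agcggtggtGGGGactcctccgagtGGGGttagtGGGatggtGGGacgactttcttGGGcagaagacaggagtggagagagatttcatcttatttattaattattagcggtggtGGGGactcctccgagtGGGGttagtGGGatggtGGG
UCKL1, chr20:62573410-62573559, minus strand: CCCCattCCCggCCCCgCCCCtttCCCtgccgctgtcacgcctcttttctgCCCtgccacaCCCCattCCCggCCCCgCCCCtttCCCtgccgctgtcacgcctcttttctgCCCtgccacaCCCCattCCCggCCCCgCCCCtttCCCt
FAH, chr15:80444965-80445114, minus strand: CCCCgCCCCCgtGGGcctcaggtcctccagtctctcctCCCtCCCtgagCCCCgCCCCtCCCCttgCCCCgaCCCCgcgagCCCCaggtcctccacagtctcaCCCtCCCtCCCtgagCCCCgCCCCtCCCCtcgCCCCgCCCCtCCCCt

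In the CHERP stretch, 66 C stood against 43 G, with 8 runs of C and 1 run of G. The UCKL1 and FAH stretches held 17 and 19 runs of C, with 84 and 92 C out of 150 bases, and both repeated C-rich units. The CACNG8 stretch had the reverse composition, with 62 G, 9 runs of G and no run of C. The UBE3A stretch was nearly even, with 65 G and 60 C and 26 CpG dinucleotides. In AGPAT3 the excess of G came from alternating G and T as well as from runs, with 65 G against 24 C and 4 runs of G. At BLM, the plus-strand stretch had 47 G and 49 C, and the minus-strand stretch 33 G and 45 C. High and low skew were thus both met among these peaks, and the group values are given further on.

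Treated-only promoter peaks were short. Of the 1659, 1245 (75%) were 500 bp wide, the smallest width in the lists, and 320 (19.3%) were 750 bp wide. Another 73 (4.4%) measured 1000 bp, and 21 were wider, up to 1750 bp. The mean was 581 bp, as compared with 772 bp for the 4097 treated promoter peaks with an untreated counterpart and 585 bp for the 1103 promoter peaks found only in untreated cells. The shares at 500 bp were 45.2% and 75.7% in these groups. A narrow peak has fewer bases with which to meet a peak of the other list, and width therefore enters every comparison with the shared peaks. The widest were a 1750-bp peak on chromosome 20 at the unclassified gene ENSG00000280387, and 1500-bp peaks at EIF4G3, CCND1, PTBP1 and DLK2. EIF4G3 encodes a translation initiation scaffold, CCND1 the G1 cyclin D1 and PTBP1 a splicing repressor. The first 3 of these 1500-bp peaks were sense and had no untreated peak in the promoter windows of their genes. An untreated peak of the same strand nevertheless lay 4750 bp from the CCND1 peak. The CCND1 and PTBP1 peaks had their midpoints in introns, upstream of internal starts. The DLK2 peak was antisense and touched an untreated peak of its strand. Several peaks of 1250 bp followed, among them those at CCDC169-SOHLH2, ENSG00000277920, MYLK3, ZNF652-AS1 and TXNL4A.

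Most of the peaks were far from the untreated peaks of their strand. The gap to the nearest untreated peak of the same strand had a median of 88750 bp (95% interval 78000 to 99500 bp), with quartiles at 24750 and 262250 bp. For 157 peaks (9.46%) it was at most 5000 bp, and for 88 (5.3%) at most 1000 bp. Untreated-only promoter peaks had a median gap of 71000 bp (62750 to 85250 bp) to the nearest treated peak of their strand. Their shares were 9.97% at 5000 bp or less and 5.98% at 1000 bp or less. At the border of the rule, 28 peaks touched an untreated peak end to end, 20 were 250 bp away and 18 were 500 bp away. Among the touching peaks the widest were at DLK2 and at EZR, which encodes the membrane linker ezrin. Several of 750 bp followed, such as that at KHDRBS1, which encodes the RNA-binding protein SAM68. On the other side of the border, 122 shared promoter peaks overlapped an untreated peak by 250 bp, the smallest overlap found. Of these, the first in genomic order were at ENSG00000289452, C1orf109 and PLK3. The promoter window had its own borders. Its downstream edge had 104 peaks within the last 25 bp, such as those of GDI2 and DHFR2 at 100 bp, and 36 treated-only peaks up to 25 bp beyond it, such as that of LTV1 at 101 bp. Its upstream edge had 6 peaks within 25 bp and 8 beyond, with SINHCAF at -987 bp inside and WNK4 at -1005 bp outside.

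The 5 peaks farthest from an untreated peak of either strand were all 500 or 750 bp wide, sense and within 100 bp of the start. The UBE3A peak, at the gene of the ubiquitin ligase lost in Angelman syndrome, was 2402500 bp from the nearest untreated peak and was centered on the start, at 0 bp. PLCB1, which encodes a phospholipase C, followed with 2177000 bp. CHRM3, the gene of a muscarinic acetylcholine receptor, had its nearest untreated peak at 2110750 bp, and ASTN2, an astrotactin gene of neuronal migration, at 2085500 bp. TMX4, a thioredoxin-related gene, had it at 2082000 bp. PLCB1 and TMX4 are both on chromosome 20, so that their gaps are taken over the same stretch.

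The strand of a peak and its place went together. The plus and minus strands of the genome held 816 and 843 peaks. Relative to the gene, 869 peaks (52.4%, 50% to 54.8%) were sense and 790 antisense. Sense peaks were centered on the start. Their midpoints had a median of -8 bp with quartiles at -168 and 35 bp, and 724 of 869 (83.3%) covered the start. Antisense peaks lay upstream, with a median of -308 bp and quartiles at -441 and -184 bp. Of these, 345 (43.7%) had their midpoint between 250 and 500 bp upstream, and 341 (43.2%) still covered the start. The other promoter peaks had the same arrangement. Shared treated peaks had medians of -3 bp for sense and -330 bp for antisense peaks, and untreated-only peaks of -11 and -324 bp. The share that was sense came to 55.9% in shared and 50% in untreated-only peaks.

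**Figure D1:**
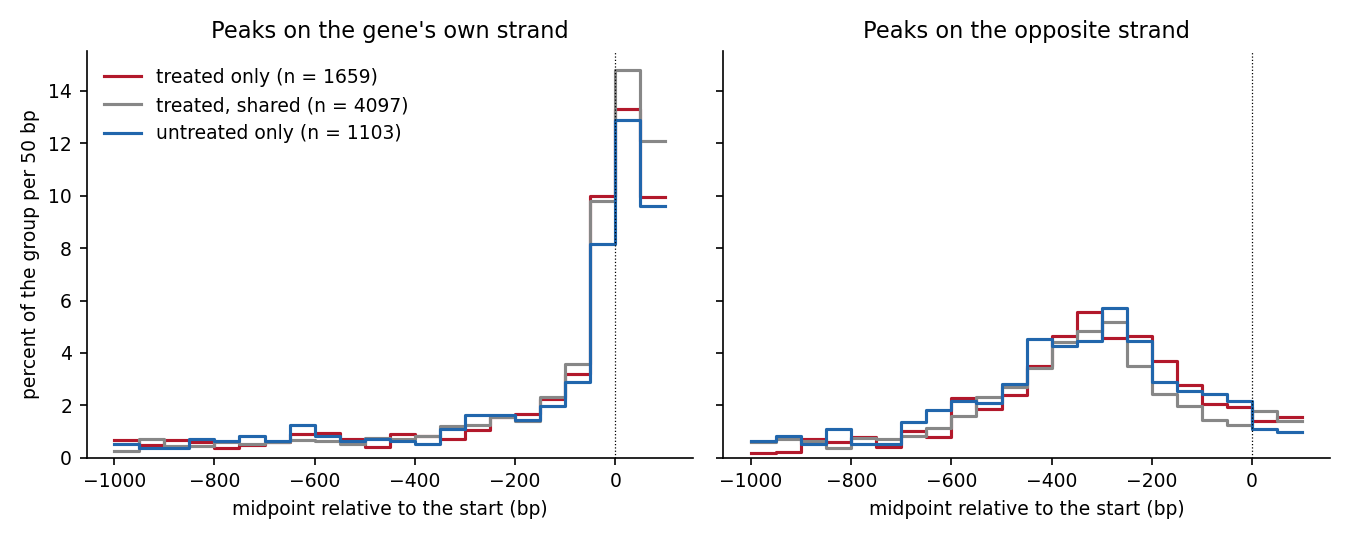
Midpoints of promoter R-loop peaks relative to the transcript start, in bp with negative values upstream, as the percent of each group of peaks per 50 bp, for peaks on the strand of the gene (left) and on the opposite strand (right). Sense peaks crowd at the start (treated only, median -8 bp) and antisense peaks upstream of it (treated only, median -308 bp) in all 3 groups.

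The window bears on these values, since it reaches 1000 bp upstream but only 100 bp downstream, and since coding genes with a treated-only peak had a median of 9 annotated starts. With a window of 1000 bp on either side, 63.9% of the peaks chosen were sense, and with the canonical start of each gene alone 36.5%, so that the direction of the excess over even numbers rests on the definition of the start. Measured from the canonical start, the 783 sense peaks at coding genes had a median of 97 bp downstream (quartiles 3.5 and 269 bp), and 382 of them (48.8%) were over 100 bp downstream. The 644 antisense peaks had a median of -358 bp (quartiles -524 and -228 bp), and 66 (10.2%) were over 100 bp downstream. The order of the orientations along the gene, antisense upstream and sense at or past the start, was thus the same with both definitions. It also held for the shared peaks, at 79 and -398 bp, and for the untreated-only peaks, at 104 and -392 bp.

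Where treated peaks stood on both strands of a promoter, they faced away from each other. Of the 1659 peaks, 339 (20.4%) had a treated peak on the opposite strand within 1000 bp. In 336 of these (99.1%, 97.4% to 99.7%) the minus-strand peak was to the left of the plus-strand peak, so that their strands ran outward, with a median of 500 bp between the midpoints. The peaks abutted exactly in 208 cases (61.4%) and overlapped in 38 (11.2%). In 125 (36.9%) the opposite peak was itself unmatched in the untreated list. The outward arrangement was found at the same rate among shared peaks (817 of 820) and untreated-only peaks (212 of 215), where the opposite peak was unmatched in 26.7% and 24.7%. At 66 genes, 57 of them coding, treated-only peaks stood on both strands of the windows, and at 78 genes, 69 of them coding, there were 2 treated-only peaks. No gene had 3.

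Several of these outward pairs consisted of treated-only peaks alone. At BLM, which encodes the RecQ helicase lost in Bloom syndrome, a minus-strand peak with its midpoint at -445 bp ended where a plus-strand peak at -3 bp began, on chromosome 15 at position 91260383. At ADAM17, the gene of a membrane protease that sheds cytokines, the sense peak was centered at 56 bp and the antisense peak at -267 bp. AP4S1, an adaptor complex subunit gene, had its sense peak at 51 bp and its antisense peak at -449 bp. BCL10, a signaling adaptor gene of lymphocytes, had them at -34 and -358 bp. CSNK1A1, the gene of casein kinase 1 alpha, had them at -16 and -237 bp. At AP4S1 both distances were taken from the same start, and at BLM, ADAM17, BCL10 and CSNK1A1 from different starts of the gene. None of these genes had an untreated promoter peak. Of the pairs with the largest summed width, KIF2A, a kinesin gene, had overlapping 750-bp peaks at -80 and -290 bp of different starts. Another was at MCM4, a subunit gene of the replicative helicase, with a sense peak of 750 bp and an antisense peak of 1000 bp. Not all genes with 2 such peaks held them at 1 promoter. At SRRM2, a splicing factor gene, ESR2, the gene of estrogen receptor beta, and ANO10, a member of the anoctamin family, the peaks were at start sites far apart, and the second peak of ANO10 was placed at its neighbor ABHD5. At DPH5, which encodes an enzyme of diphthamide synthesis, the peaks abutted, at -240 and -128 bp of different starts.

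The treated-only promoter peaks lay in the windows of 2036 genes, of which 1533 were protein-coding. This is 7.6% of the 20176 coding genes annotated and 30.7% of the 4996 coding genes with any treated promoter peak, against 5.13% of coding genes with an untreated-only promoter peak. The gene at which a peak was placed was coding for 1434 peaks (86.4%) and a long noncoding RNA for 179 (10.8%). The rest fell at pseudogenes, at microRNA genes (7 peaks) and at other classes. A single gene claimed 1241 peaks (74.8%), while 383 (23.1%) lay in the windows of 2 genes, and 135 (8.14%) in those of coding genes on both strands. At coding genes 54.7% of the peaks were sense (52.2% to 57.3%), and at long noncoding RNA genes 35.2% (28.6% to 42.4%). By the annotation of the gene, 659 midpoints (39.7%) were upstream of it, 432 (26%) in an untranslated exon, 347 (20.9%) in an intron, 127 (7.66%) in a coding exon and 94 (5.67%) in an exon of a noncoding transcript. The coding genes had a median length of 42893 bp (40236 to 45781 bp). Those at shared peaks had 35479 bp (33541 to 38073 bp). Those at untreated-only peaks had 38721 bp (33173 to 43497 bp), an interval that overlaps the first.

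For 1322 of the 1659 peaks (79.7%, 77.7% to 81.6%) the untreated list had no promoter peak at any of their genes on either strand. These were 1666 genes, 1216 of them coding. Another 241 peaks (14.5%) stood at genes where untreated cells had a promoter peak on the opposite strand only, and 96 (5.79%) at genes with an untreated peak elsewhere on the same strand. Of these 241 peaks, 231 (95.9%) pointed away from the untreated peak of the opposite strand, with a median of 625 bp between midpoints. In 189 of the 241 cases (78.4%) that opposite peak was also in the treated list, and in the others it was not. Among the 241 peaks, 58.9% were sense (52.6% to 64.9%), as compared with 50.2% of the 1322 at genes without an untreated peak and 65.6% of the 96. At 290 genes, 255 of them coding, a treated-only peak stood beside a shared one, and at 102 genes, 84 of them coding, beside an untreated-only one. Counted the other way round, 833 of the 1103 untreated-only promoter peaks had no treated promoter peak at their genes (75.5%).

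The study selected KBTBD6, ENTPD5 and CHERP because its R-loop sequencing showed raised promoter R-loops there, so finding them here is not independent of that choice. It reported lower expression of these genes after treatment. CLSPN was its control gene, with a similar promoter R-loop level and no apparent change in expression. ENTPD5 and CHERP had a treated-only peak in their own promoter window, and KBTBD6 had one that entered through a neighboring gene. ENTPD5 encodes an endoplasmic reticulum nucleotidase. Its 500-bp peak at chr14:74485632-74486131 was on the minus strand, sense, with the midpoint at 93 bp and a GC content of 76.2%, and no untreated peak lay within 64750 bp on any strand. CHERP encodes an endoplasmic reticulum calcium homeostasis protein that also takes part in splicing. Its peak at chr19:16653095-16653594 was sense, centered at -96 bp, with a GC content of 72% and a skew of -0.16, and 46000 bp from the nearest untreated peak. KBTBD6 encodes an adaptor of a ubiquitin ligase. The 500-bp peak at chr13:41706501-41707000 covered its start at 41706938 with the midpoint too far downstream for the window, and entered through the noncoding gene ENSG00000278390 on the other strand, from which it lay at -314 bp. It was touched by the untreated peak chr13:41706001-41706500 of its strand. Peaks at CLSPN and GAPDH were not among the treated-only promoter peaks. CLSPN, which encodes the checkpoint mediator claspin, had a 1000-bp treated peak inside the gene, at chr1:36192397-36193396, and no untreated peak, so that this peak was treated-only but outside the promoter. GAPDH, a glycolytic gene, had peaks in both lists.

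Treated-only promoter peaks were rich in G and C, with C in excess on their own strand. Over 1658 peaks with unmasked sequence the median GC content was 63.2% (62.4% to 63.8%), beside 60.6% for shared and 59.2% for untreated-only peaks. Their median of C was 32% and that of G 30.4%, whereas untreated-only peaks had 28.8% C and 29.8% G. The median GC skew was -0.0223 (-0.0291 to -0.0156) in treated-only, -0.0133 in shared and 0.0221 (0.0127 to 0.0294) in untreated-only peaks. A skew above 0 was found in 41.6% of treated-only peaks (39.3% to 44%) and 57.1% of untreated-only peaks (54.2% to 60%). At a fixed width of 500 bp, the median GC content was 63.4%, 61.2% and 60%, and the median skew was -0.0185, -0.00897 and 0.024. The order of the groups was thus the same at this width. The ratio of observed to expected CpG was 0.774, 0.762 and 0.734 over whole peaks.

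The composition differed by orientation and kept the order of the groups in each. In the 500 bp around the midpoint, sense treated-only peaks had a median GC content of 65.4% and antisense ones 61.2%, and the medians were 63.2% and 58.6% in shared and 61.3% and 56.6% in untreated-only peaks. Median skew was -0.0128 in sense and -0.0346 in antisense treated-only peaks. Shared peaks had -0.00662 and -0.0255, and untreated-only peaks 0.0315 and 0.00958. The spread within each group was wide, from -0.224 to 0.191 between the 5th and 95th percentiles of sense treated-only peaks, and the groups overlapped over most of their range. For reference, the 500 bp from 400 bp upstream to 100 bp downstream of the canonical start of 19819 coding genes had a median GC content of 61.4% and a skew of 0.0112 on the strand of the gene.

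**Figure D2:**
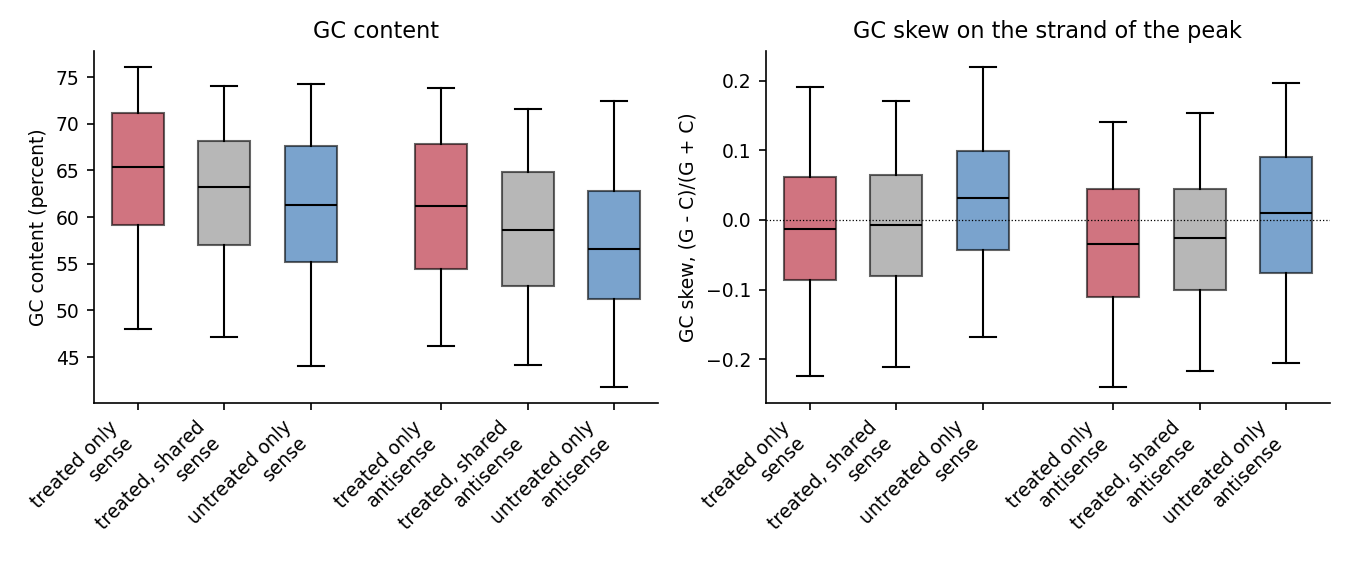
GC content (percent, left) and GC skew on the strand of the peak (right) in the 500 bp around the midpoint, by group and orientation. Boxes give the median and quartiles over peaks and whiskers the 5th and 95th percentiles. Treated-only peaks have the highest median GC content in both orientations (65.4% sense, 61.2% antisense) and untreated-only peaks alone have a median skew above 0.

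At the extremes of skew, the AGPAT3 peak of 750 bp had a skew of 0.73 and a GC content of 54.8%. AGPAT3 encodes an acyltransferase of phospholipid synthesis. It was followed by SLC45A2, a melanosome transporter gene, at 0.49 and CACNG8, the gene of an AMPA receptor auxiliary subunit, at 0.48. All 3 were sense peaks whose midpoints lay at -547, -867 and -260 bp. The lowest values were -0.46 at UCKL1, a uridine kinase gene, -0.42 at FAH, which encodes the last enzyme of tyrosine breakdown, and -0.41 at GABBR1, a GABA receptor gene. As the sequences above show, the UCKL1 and FAH peaks were C-rich repeats on the strand of the peak, and FAH had 8 quadruplex motifs on the other strand and 0 on its own.

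A quadruplex motif was taken as 4 runs of at least 3 G with loops of 1 to 7 bases. In the 500 bp around the midpoint, 330 treated-only peaks (19.9%, 18.1% to 21.9%) held one on their own strand and 515 (31.1%, 28.9% to 33.3%) on the opposite strand. The shares on the own strand were 16% in shared and 17.6% in untreated-only peaks, and on the opposite strand 23.8% and 19.7%. Counted over whole peaks, where shared peaks are wider, the shares were 23%, 23.6% and 19.1% on the own strand and 33.8%, 32.4% and 22.6% on the opposite strand, so that the order of treated-only and shared peaks on the own strand turned around. Of the coding promoters as a whole, 25% held one on the gene strand and 24.4% on the other. Among the peaks with the most motifs on their own strand, there were 9 at CLN8, a gene of neuronal ceroid lipofuscinosis, and 7 at CSNK1D, the gene of casein kinase 1 delta.

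Short promoter motifs were counted by their letters on either strand of the same 500 bp. The GC box GGGCGG, the core site of SP1, was in 72.9% of treated-only peaks (70.7% to 75%), 69.5% of shared peaks (68.1% to 70.9%), 63.6% of untreated-only peaks and 67.3% of coding promoters. The ETS core CCGGAA was in 29.4%, 31%, 28.9% and 28.4%. The CCAAT box was in 37.6% of treated-only peaks (35.3% to 40%), 44.3% of shared (42.8% to 45.9%) and 44.2% of untreated-only peaks (41.3% to 47.2%), and 47.4% of coding promoters. The TATA box TATAAA was in 8.87% (7.59% to 10.3%), 10.3% (9.36% to 11.2%), 13.4% (11.5% to 15.6%) and 15%, in the same order. The interval of the CCAAT box in treated-only peaks lay below those of the other groups, while the intervals of the GC box and the TATA box overlapped between treated-only and shared peaks. None of these differences was tested. The GC content of the treated-only peaks was also the highest. The part of base composition in these shares was not tested.

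The share of promoter peaks that was unmatched depended on width and GC content, and on GC content in opposite ways in the 2 lists. Of treated promoter peaks, 40.2% (38.5% to 42%) were unmatched at 500 bp, 20.5% at 750 bp and 13.5% at 1000 bp, 5.1% at 1250 to 1500 bp and 1 of 169 beyond. Untreated promoter peaks fell off in the same way, with 30.2%, 13.9%, 12.2%, 4.95% and 1.3%. By GC content of the 500 bp around the midpoint, the unmatched share of treated promoter peaks was 22.8% (19.7% to 26.1%) below 50% GC, lay between 25.7% and 29.1% up to 70% GC, and was 40.9% (37.9% to 44.1%) from 70% GC on. For untreated promoter peaks it was 28.7% (25.4% to 32.2%) below 50% GC, 16.2% from 65% to 70% GC and 20.5% (17.6% to 23.6%) from 70% GC on. Among 500-bp peaks alone, the treated share was 35.9% in the lowest and 52.9% in the highest class, and the untreated share 40.7% and 28.2%.

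**Figure D3:**
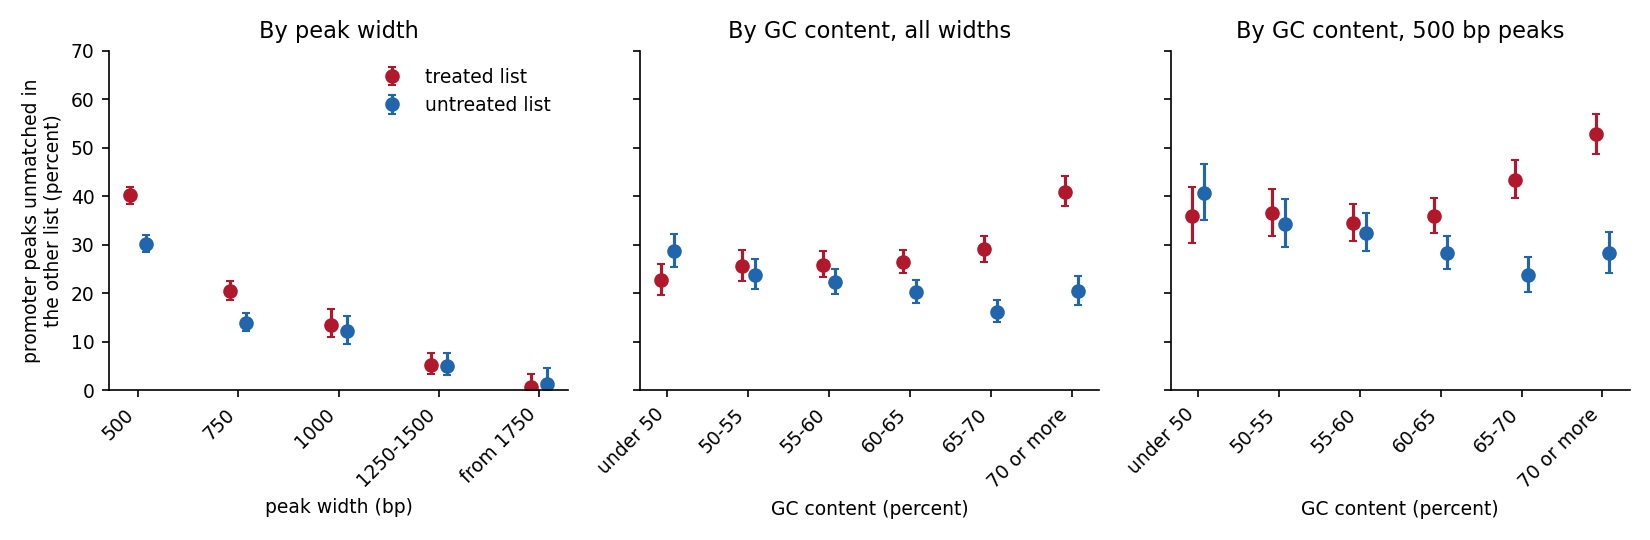
Percent of promoter peaks without a same-strand counterpart in the other list, by peak width in bp and by GC content of the 500 bp around the midpoint, for all widths and for 500-bp peaks. Points are shares and bars 95% Wilson intervals. The treated share is highest in the most GC-rich class (40.9%, and 52.9% at 500 bp), where the untreated share is 20.5% and 28.2%.

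GC skew separated the lists in another manner. The unmatched share of treated promoter peaks was 31.5% below a skew of -0.1 (29.1% to 34.1%) and between 27.3% and 29.1% in the 5 classes above it, with 28.5% from 0.1 on. That of untreated promoter peaks went up through the classes, from 16.6% (14.4% to 19%) below -0.1 to 30.4% (27.4% to 33.6%) from 0.1 on. The negative median skew of the treated-only peaks thus lay close to that of the shared peaks, and the positive skew of the untreated-only peaks stood apart from both. Among chromosomes, 4 had the lowest unmatched share of treated promoter peaks with 23.4% and 21 the highest with 42.3%, the latter from 22 of 52 peaks.

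Genes of the R-loop and checkpoint machinery were among those with a treated-only promoter peak. Of 34 genes listed for R-loop processing, 8 (23.5%) had one, beside 7.6% of coding genes. An untreated-only peak was found at 4 of them (11.8%), beside 5.13% of coding genes, so that both shares were above those of all coding genes. RNASEH1, which encodes the RNase H that digests RNA in hybrids, had a 750-bp sense peak at 10 bp. RNASEH2C, a subunit gene of RNase H2, had a sense peak at 44 bp. SAMHD1, the gene of a dNTP triphosphohydrolase that also acts at stalled forks, had one at 0 bp, and BRCA1, a recombination gene, one at 1 bp. BLM had the pair described above. WRN, another RecQ helicase gene, had an antisense peak at -248 bp, and XRN2, which encodes the exonuclease of transcription termination, an antisense peak at -594 bp. DDX39B, the gene of an mRNA export helicase that can unwind hybrids, had one at -25 bp and was the only gene of the 8 with an untreated promoter peak of its own. Of the 9 peaks at these genes, 5 were sense and 6 had their midpoint within 100 bp of a start.

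Of 27 checkpoint and replication stress genes, 6 (22.2%) had a treated-only promoter peak and 1 (3.7%) had an untreated-only peak. CHEK1, the gene of the kinase CHK1, had 2 sense peaks, at -117 and -18 bp of different starts. RAD1 and RAD9A, which encode subunits of the checkpoint clamp, had a sense peak at -168 bp and an antisense peak at -867 bp. RAD17, the gene of the clamp loader, had an antisense peak at -46 bp that was also the sense peak of TAF9, its neighbor on the other strand. TOPBP1, an ATR activator gene, had an antisense peak at -151 bp. The shares of the next 3 lists lay near the 7.6% of all coding genes. Nucleotide excision repair had 2 of 33 genes (6.06%), CETN2 with an antisense peak at -323 bp and GTF2H1, a TFIIH subunit gene, with a sense peak at 90 bp. The Fanconi anemia and homologous recombination list had 3 of 32 (9.38%), namely RAD51C at 9 bp, RAD52 at -531 bp and UBE2T at -350 bp. Replication fork and origin genes had 2 of 38 (5.26%), MCM4 and ORC4. In each of these 3 lists 4 genes had an untreated-only peak, which is 12.1%, 12.5% and 10.5%. Translesion synthesis, with 22 genes, and base excision and single-strand break repair, with 24, had 0, while 4 genes of each had an untreated-only peak (18.2% and 16.7%, beside 5.13% of all coding genes).

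Chromatin and transcription genes had some of the largest shares. Lysine methyltransferases and demethylases had 12 of 44 genes (27.3%) with a treated-only peak and 3 (6.82%) with an untreated-only peak, where all coding genes had 7.6% and 5.13%. EZH1 and EZH2, the catalytic subunits of Polycomb repressive complex 2, had antisense peaks of 750 bp at 36 and -773 bp. KDM6A and KDM6B, demethylases of the mark they write, had antisense peaks at -684 and -35 bp. KMT2C, a methyltransferase of enhancers, had a sense peak of 750 bp at -65 bp whose GC content was 80.3%, and KDM5B, which removes methyl groups at promoters, a sense peak at 82 bp. SETD5 had a sense peak at -11 bp, and 11 of the 12 genes had no untreated promoter peak. Antisense peaks made up 8 of the 12. RNA polymerase II and Mediator subunits had 9 of 43 (20.9%), and 3 (6.98%) with an untreated-only peak. Of the 9, 8 had no untreated promoter peak and 7 were sense. The sense peaks included MED26 at -79 bp with a GC content of 77.6%, MED31 at -3 bp and POLR2M at 81 bp. Another was MED14 at -81 bp, the gene with an untreated promoter peak, on the opposite strand. The general transcription factor list had 10 of 50 (20%), among them TAF1 with an antisense peak at -242 bp and TAF4B with a sense peak of 1000 bp at 9 bp, while 8 of its genes (16%) had an untreated-only peak.

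Translation genes were split. Translation initiation factors had 12 of 56 genes (21.4%) with a treated-only peak and 7 (12.5%) with an untreated-only peak. All coding genes had 7.6% and 5.13%. EIF4G3 had the 1500-bp sense peak, EIF3H a sense peak at 7 bp, and EIF2AK2, the gene of the double-stranded RNA kinase PKR, an antisense peak of 750 bp at -34 bp. Aminoacyl-tRNA synthetases had 7 of 35 (20%), all without an untreated promoter peak, and 0 had an untreated-only peak. Of these, CARS2, EARS2, FARS2, MARS2 and NARS2 encode mitochondrial enzymes. GARS1 had an antisense peak at -448 bp, and YARS1 had peaks on both strands, at 22 and -514 bp. Cytosolic ribosomal protein genes had few. Of 86 genes of the cytosolic ribosome, 52 had a treated promoter peak but 3 (3.49%) had a treated-only one, RPL22 at 4 bp, RPL6 at 97 bp and RPS21 at -10 bp, all sense. Untreated-only peaks were at 2 of the 86 (2.33%). Mitochondrial ribosomal protein genes had 8 of 78 (10.3%) and 6 (7.69%) with an untreated-only peak. Respiratory chain subunits had 8 of 88 (9.09%), the same number as for untreated-only peaks. The treated-only shares of both lists lay near the 7.6% of all coding genes.

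**Figure D4:**
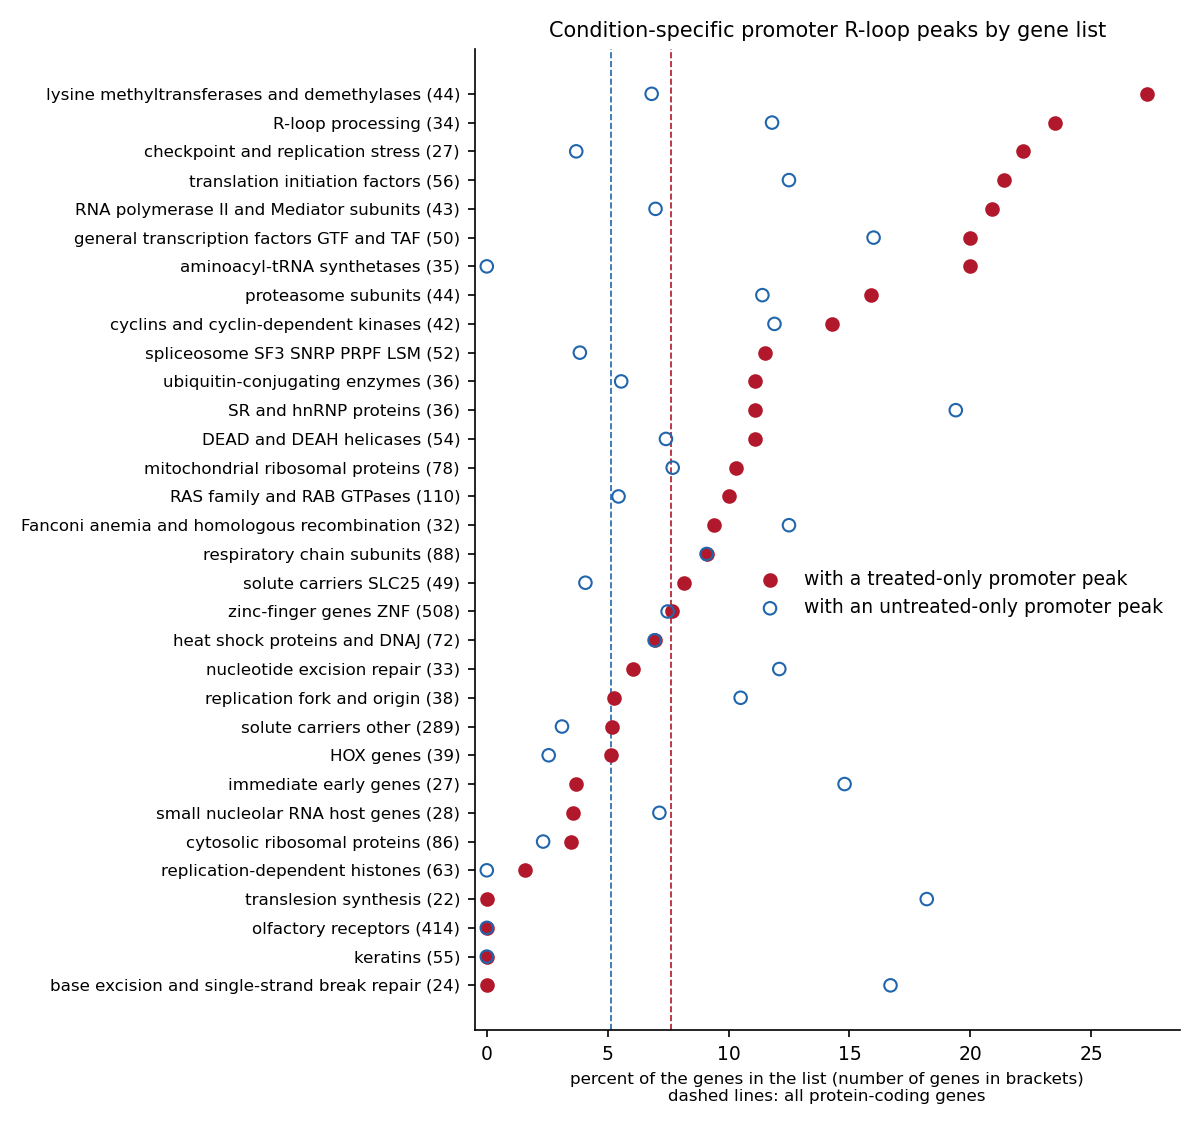
Percent of the genes of each list with a treated-only promoter peak (filled) and with an untreated-only promoter peak (open), with the number of genes in brackets and dashed lines at the values for all protein-coding genes (7.6% and 5.13%). Lysine methyltransferases and demethylases reach 27.3%, and translesion synthesis and base excision repair genes have 0 treated-only peaks.

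Among the remaining lists, proteasome subunits had 7 of 44 genes (15.9%), cyclins and cyclin-dependent kinases 6 of 42 (14.3%) and spliceosome genes 6 of 52 (11.5%). CCND1 and CDK6, which drive entry into S phase, had sense peaks at -750 and -411 bp. The CCND1 distance was taken from an internal start, with the midpoint in an intron of the gene. CCNB1, the mitotic cyclin gene, had an antisense peak at -388 bp. DEAD and DEAH helicases had 6 of 54 (11.1%), and ubiquitin-conjugating enzymes 4 of 36 (11.1%). The SR and hnRNP list had 4 of 36 (11.1%), with SRSF9 on both strands, and 7 with an untreated-only peak (19.4%). RAS family and RAB genes had 11 of 110 (10%), SLC25 carriers 4 of 49 (8.16%), other solute carriers 15 of 289 (5.19%) and ZNF genes 39 of 508 (7.68%), which is close to the 7.6% of all coding genes. Heat shock genes had 5 of 72 (6.94%), HOX genes 2 of 39 (5.13%) and immediate early genes 1 of 27 (3.7%), NR4A2. Small nucleolar RNA host genes had 1 of 28, SNHG10, and replication-dependent histones 1 of 63, H2BC21. The untreated-only shares of these lists, beside 5.13% of all coding genes, were 14.8% for immediate early genes, 11.9% for cyclins and cyclin-dependent kinases, 11.4% for proteasome subunits, 7.48% for ZNF genes, 7.41% for DEAD and DEAH helicases, 7.14% for small nucleolar RNA host genes and 6.94% for heat shock genes. They were 5.56% for ubiquitin-conjugating enzymes, 5.45% for RAS family and RAB genes, 4.08% for SLC25 carriers, 3.85% for spliceosome genes, 3.11% for other solute carriers, 2.56% for HOX genes and 0 for histones. Olfactory receptors and keratins had no treated or untreated promoter peak. Of 6 marker genes each of blood, liver, muscle and differentiated kidney epithelium, 0 had a treated-only peak, and 1 muscle and 1 kidney marker had a shared one. Promoter peaks are not expression, so that these counts check the cell type only in part.

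These shares rest in part on how many genes of a list had any treated promoter peak. Relative to those, the treated-only share was 30.7% over all coding genes, and 46.2% both for lysine methyltransferases and demethylases and for checkpoint genes. It was 44.4% for R-loop processing, 41.4% for translation initiation factors, 41.2% for proteasome subunits, 38.5% for general transcription factors, 37.9% for RAS family and RAB genes, 36.8% for aminoacyl-tRNA synthetases, 36.4% for ubiquitin-conjugating enzymes and 36% for RNA polymerase II and Mediator. At the other end, it was 12.5% for nucleotide excision repair and for heat shock genes, 8.33% for immediate early genes, 5.77% for cytosolic ribosomal proteins, 5.56% for small nucleolar RNA host genes, 5% for replication-dependent histones and 0 for translesion synthesis and base excision repair, with 8 and 4 genes that had a treated promoter peak. No enrichment was tested, and many of these lists hold so few genes that 1 or 2 genes move a share by several percentage points.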

How the data were processed

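R-loops were mapped by spKAS-seq, a strand-specific capture of kethoxal-labeled DNA. Per the labels and methods, the authors' reads went through Trim Galore, then Bowtie2 with the hg19 genome, then Picard for duplicates, and R-loops were defined by a procedure published earlier. The 4 columns of the deposited lists locate each peak and its strand. No count, height or p-value comes with them, so the depth behind a peak is unknown. Starts were those of 254413 transcripts of 64485 genes of GENCODE release 44 mapped to GRCh37, which is hg19. Overlap was counted on the same strand from 1 bp, which gave 3411 unmatched peaks, the same number as bedtools 2.31.1. A peak was placed at the nearest qualifying start of a coding gene, or else of any gene. Base composition came from the GRCh37 sequence on the strand of the peak, leaving out peaks masked over more than 50%, and whole peaks were used unless 500 bp around the midpoint is stated. Shares carry 95% Wilson and medians 95% order-statistic intervals. The code was tested on simulated data and placed 1000 of 1000 peaks as planted. Tools were Python 3.11.15 with pysam 0.24.0, pandas 2.3.3, numpy 2.4.6, matplotlib 3.10.9 and scipy 1.17.1, and samtools 1.23.1.

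The peaks, the 32 gene lists and the 4 marker lists were chosen with earlier results of these data known. Genes were named by rule: those the study used, the 10 widest peaks, genes with 2 peaks or with peaks on both strands (5 each), the 3 highest and 3 lowest skews, the 3 with most quadruplex motifs, the 5 farthest from an untreated peak, 3 at each border of the rule, and list genes. Of list genes with a peak, all were eligible in lists on repair and R-loops and the first 6 by symbol in other lists. KDM6B, KMT2C, SETD5, POLR2M, YARS1, TAF4B and TAF9 were named outside this rule, after their values were seen. Some genes and sequences that this rule names are not reported here.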

Additional observations from a re-analysis of the deposited data

How the results depend on the processing

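The 5 summary values were recomputed 48 times, changing 1 choice at a time, and 35 values stayed within the interval of the main value or within 1.5 times the main count. The median GC skew did so throughout, from -0.0243 to -0.0202. With peaks of at least 750 bp in both lists, the number of treated-only promoter peaks was 906, the unmatched share 34%, the sense share 55.3% and the share at genes with no untreated promoter peak 93.3%. The sense share was 63.9% with 1000 bp on either side of the start, 36.5% with canonical starts, 62.1% with any overlap with the window and 55% by the nearest start of any gene. The share at genes with no untreated promoter peak was 73.1% with 1000 bp on either side, 83.7% with 500 bp upstream, 91.4% with canonical starts, 73.8% with any overlap with the window, and 73.7% with untreated peaks placed by any overlap. The cause was not tested. No paired analysis was possible because treated and untreated cells are represented by a single list apiece, which also leaves no replicate to leave out. Without heights or read counts, a peak just under the calling threshold in untreated cells cannot be told apart from no R-loop.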

Other observations

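The same contrast in base composition was seen outside promoters. In the 500 bp around the midpoint, treated-only peaks outside promoters had a median GC content of 53.2% and a median skew of -0.0216, and 41.9% had a skew above 0. Untreated-only peaks outside promoters had a median GC content of 49.6% and a median skew of 0.0154, and 55.2% had a skew above 0. The lists are those from which the promoter peaks were taken, so these values are not independent of the processing of the samples.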
